A study of Mus musculus with 6 samples.

Results

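The Hox genes and their partners Meis and Pbx were followed across 6 Clariom S arrays of mouse HoxB8 neutrophil progenitors. The members were all probe sets annotated as a Hoxa, Hoxb, Hoxc or Hoxd gene or as a Meis or Pbx gene. This gave 39 of the 19505 named genes, read by 39 of 22206 probe sets, 1 for each gene: 33 Hox, 3 Meis and 3 Pbx. The measured Hox genes are 8 in the Hoxa cluster on chromosome 6, 9 in Hoxb on chromosome 11, 9 in Hoxc on chromosome 15 and 7 in Hoxd on chromosome 2. Other genes of these families are not analysed here.

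The cells of both groups are labelled as HoxB8 neutrophil progenitors, named for the transcription factor Hoxb8. All arrays were made after 1 day in the same differentiation medium, Optimem Glutamax with FCS, Pen/Strep, β-mercaptoethanol and SCF supernatant. The comparison is between 3 arrays of cells with the WT form of C/EBPα and 3 of cells with K313-C/EBPα, a mutant that the series title ties to acute myeloid leukaemia (AML). The promoters of the introduced genes, the number of clones behind each line, and whether Hoxb8 activity was switched off for differentiation are not given in the sources used here. Nor do the labels say that replicates were separate cultures, so the spread between arrays may be technical.

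Hox proteins are homeodomain transcription factors encoded in 4 clusters, in which the order of the genes follows the order of their use along the body axis. They bind DNA weakly alone and more tightly with Pbx and Meis proteins, homeodomain factors of the TALE class. In blood, Hox and Meis1 activity is high in stem and progenitor cells and declines as cells mature, and forced Hoxb8 or Hoxa9 expression with growth factors holds myeloid progenitors in a dividing, immature state. C/EBPα drives the same progenitors towards granulocytes.

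Values are RMA log2 levels, in which a step of 1 is a doubling of signal. The arrays had medians of 5.01 to 5.13. As no detection calls were at hand, a background was read from 1414 probe sets of olfactory and vomeronasal receptors, genes of sensory neurons. The 95th percentile of their mean levels was 4.70, and a group mean at or under it is called not above the receptor background. Probe sets differ in their own background, so this is a rough floor. Of all probe sets, 56% lay above it in at least 1 group.

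The groups also differed in Y-linked signal. Uty, a gene of the Y chromosome, read 3.72, 3.78 and 6.81 in WT and 12.37, 11.67 and 11.97 in K313, with no overlap, and WT replicate 3 stood about 3 steps above the other WT arrays. Over all probe sets WT replicate 3 was also the WT array nearest to K313 (Pearson r of 0.9870 to 0.9891 with the K313 arrays, against 0.9831 to 0.9855 for WT replicates 1 and 2), though closer to its own group (0.9949 and 0.9953). The part of this difference between the lines in any result, those of Hoxb8 and the Pbx genes included, was not tested. It runs along the groups, so with these arrays it cannot be told apart from the form of C/EBPα. Without WT replicate 3 the change was -4.63 for Hoxb8, 1.40 for Pbx3, -0.76 for Pbx2 and -0.50 for Meis1, on the log2 scale. WT replicates 1 and 2 also differ from every K313 array in Uty, so these values do not separate the 2 differences.

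Among the members, Hoxb8 and Pbx2 fell in K313 and Pbx3 rose, and the other 36 did not pass the test (limma, adjusted p under 0.05 over all probe sets). These 3 of 39 make 7.69%, against 7.75% of all probe sets called in the same comparison, so the share of members called lay at the background. The median change of the members, K313 minus WT, was -0.04, against 0.02 over all probe sets. The 1 member that rose compares with 3.77% of all probe sets and the 2 that fell with 3.97%. The arrays of the groups did not overlap for 11 members, 4 higher and 7 lower in K313, against 21.9% of all probe sets (11% higher and 10.9% lower).

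Most members were not above the receptor background. In the 10 that were in at least 1 group, the same 3 were called (1 higher, 2 lower) and 7 did not overlap between groups. Of the 12428 probe sets above it, 13.3% were called, 6.34% higher and 6.97% lower, and 30.2% did not overlap. The 29 others had levels of 2.44 to 4.91 and changes of -0.31 to 0.25, and 0 of them had an unadjusted p under 0.05 (limma). Among all 22206 probe sets, 3960 did.

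**Figure D1:**
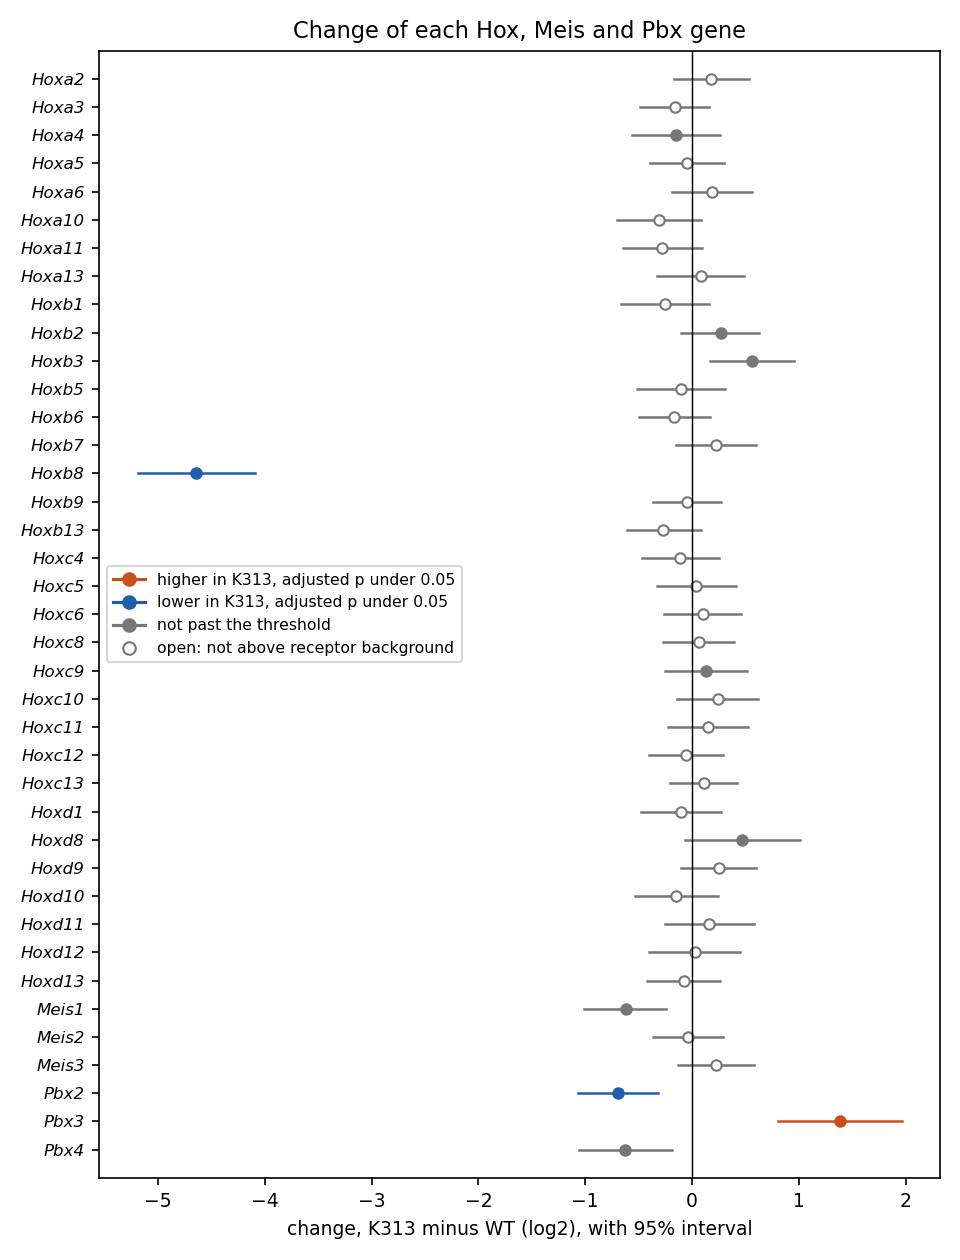
Change of each of the 39 members, K313 minus WT on the log2 scale, with its 95% interval from limma (3 arrays per group); filled points lie above the receptor background in a group, open points do not. Hoxb8 at -4.64 stands far to the left, Pbx3 at 1.38 to the right, and the intervals of the 32 other Hox genes stay between -0.70 and 1.01.

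The promoters of Hoxb8 and Pbx2 are shown because these genes fell, and that of Meis1 because it is the Hox partner best known in myeloid cells. Pbx3 has no window in the table used, and that of Pbx4 held none of the motifs searched. Each is the 250 bases before the start of transcription in RefSeq (GRCm38.p6), 5′ to 3′ on the gene's strand. Capitals mark exact matches, on either strand, to TGATNNAT, bound by Hox with Pbx, to TGACAG, bound by Meis, or to TTNCNNAA, a loose form of the C/EBP site. Hoxb8 lies on the plus strand at chr11:96281655-96281904, Pbx2 on the plus strand at chr17:34592009-34592258 and Meis1 on the minus strand at chr11:19018970-19019219.
Hoxb8: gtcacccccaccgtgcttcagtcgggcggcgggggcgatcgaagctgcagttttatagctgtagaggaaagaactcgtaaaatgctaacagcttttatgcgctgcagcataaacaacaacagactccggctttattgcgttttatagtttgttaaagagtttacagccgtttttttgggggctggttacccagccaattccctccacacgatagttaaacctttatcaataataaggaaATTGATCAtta
Pbx2: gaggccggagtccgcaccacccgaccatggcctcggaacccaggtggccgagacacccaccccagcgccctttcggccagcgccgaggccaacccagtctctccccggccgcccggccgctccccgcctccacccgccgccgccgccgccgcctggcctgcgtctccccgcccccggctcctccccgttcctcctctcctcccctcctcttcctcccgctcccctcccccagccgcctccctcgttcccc
Meis1: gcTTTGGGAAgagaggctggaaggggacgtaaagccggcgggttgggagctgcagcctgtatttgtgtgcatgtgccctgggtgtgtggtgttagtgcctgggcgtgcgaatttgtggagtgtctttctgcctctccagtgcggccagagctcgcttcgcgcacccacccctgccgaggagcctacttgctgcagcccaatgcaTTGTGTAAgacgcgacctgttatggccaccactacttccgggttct

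In the Hoxb8 window there was 1 match, to the Hox and Pbx motif, from 11 to 4 bases before the start. Meis1 had 2 matches to the C/EBP motif, from 248 to 241 and from 46 to 39 bases before the start, and the Pbx2 window, with 77.6% G and C, had none. Over 24 windows of 22 members, 4 held the Hox and Pbx motif, 2 the Meis motif and 4 the C/EBP motif. Over all 32851 RefSeq windows of this length the shares were 7.68%, 15.9% and 36.8%. Matches of the C/EBP motif can overlap each other. The Hoxb1 window held TGATGGAT, a match to the Hox and Pbx motif, from 162 to 155 bases before its start; Hoxb1 is known for such autoregulatory sites in the hindbrain. A match is a description of letters and shows no binding.

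Hoxb8, whose forced expression is known to hold myeloid progenitors immature, had the largest change of the module. Its log2 levels were 12.45, 13.49 and 12.99 in WT and 8.06, 8.53 and 8.42 in K313. Every K313 array lay more than 3 steps below every WT array, and no array stood apart within its group. The change was -4.64 ± 0.25 (SE; 95% interval -5.19 to -4.09, limma adjusted p = 1.15e-06), or 24.9-fold lower, the 7th largest fall of the 22206 probe sets. Without 1 array at a time it ran from -4.90 to -4.38 and stayed past the threshold each time. In K313 it remained far above the receptor background, and 0 of the 1414 receptor probe sets had a mean as high as its mean over all arrays. Which copy the probe set reads, endogenous, introduced or both, is not stated, and the array does not tell more Hoxb8 RNA per cell from more cells that make it.

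The 8 other measured genes of the Hoxb cluster did not pass the test. Hoxb7 and Hoxb9, the measured genes on either side of Hoxb8, were not above the receptor background. Hoxb7 read 4.74, 4.32 and 4.36 in WT and 4.63, 4.83 and 4.63 in K313, and Hoxb9 read 2.96, 3.01 and 2.96 against 2.90, 2.97 and 2.91. Both sets of arrays overlap, with changes of 0.22 ± 0.17 and -0.05 ± 0.14 (limma adjusted p = 0.586 and 0.919). So near background a fall in them could be missed or read too small.

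Hoxb3 and Hoxb2, anterior members of the cluster that blood progenitors are known to use, had positive changes that missed the threshold. Hoxb3 read 4.31, 4.38 and 4.35 in WT and 4.84, 4.66 and 5.23 in K313, a change of 0.56 ± 0.18 (limma adjusted p = 0.0906; 95% interval 0.17 to 0.95). The groups did not overlap, but only the K313 mean lay above the receptor background. Hoxb2 read 5.34, 5.16 and 5.30 against 5.53, 5.32 and 5.75, and its groups overlapped (0.27 ± 0.17, limma adjusted p = 0.472). Hoxb1, Hoxb5, Hoxb6 and Hoxb13 were not above the receptor background, with changes between -0.27 and -0.10 and limma adjusted p-values from 0.435 to 0.857.

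**Figure D2:**
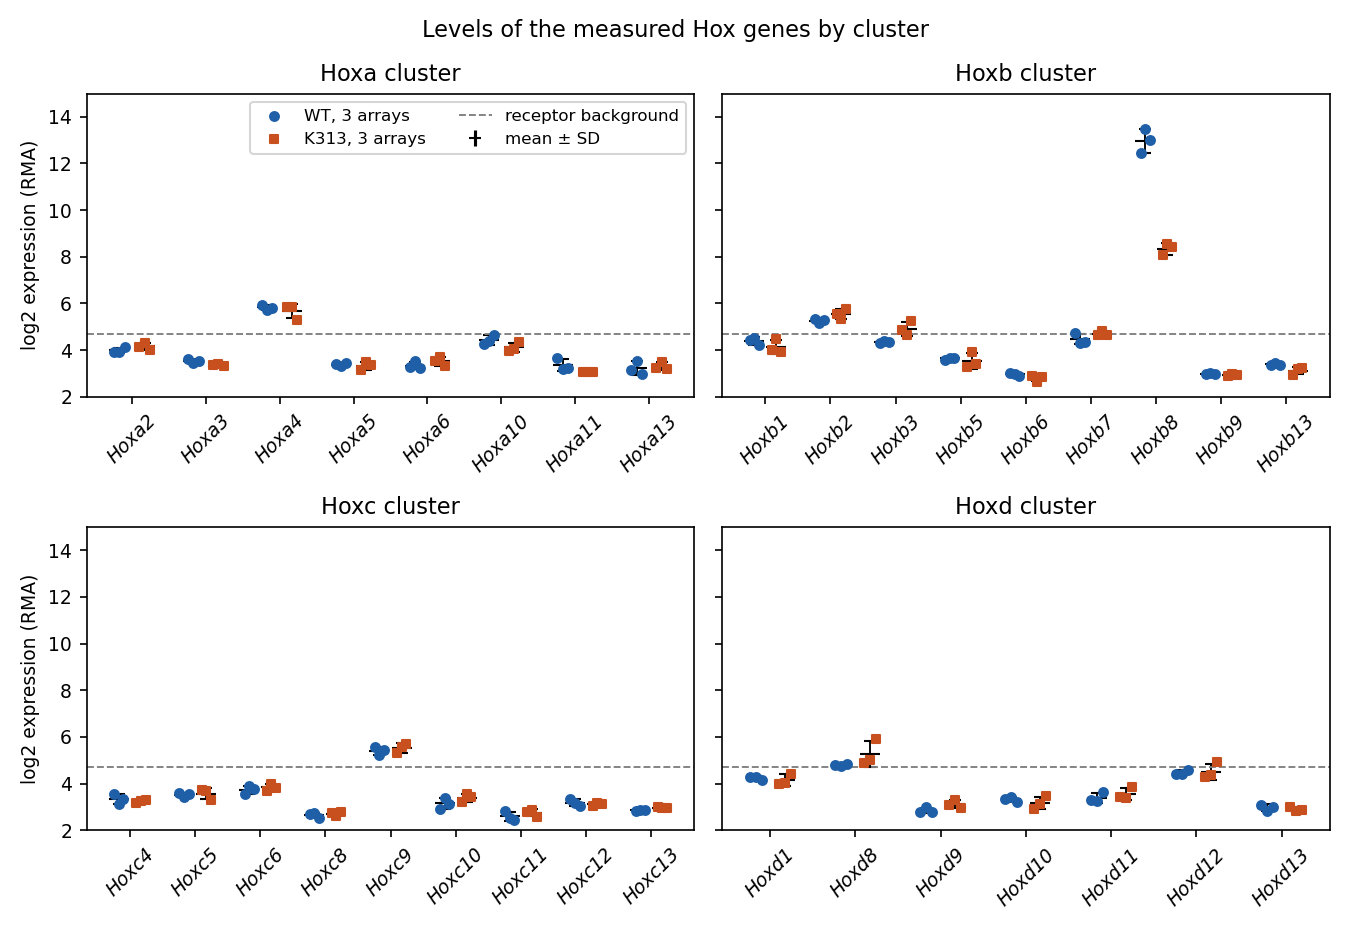
Log2 level of the 33 measured Hox genes by cluster, WT (circles) and K313 (squares), 3 arrays each, with mean ± SD; the dashed line is the receptor background of 4.70. Hoxb8 alone lies above 6 in either group, and 27 of the 33 genes lie at or under the line in both groups; levels of different probe sets are not to be ranked against each other.

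In the Hoxa, Hoxc and Hoxd clusters 0 of 24 genes passed (limma), against 7.75% of all probe sets. At an unadjusted p under 0.05 (limma) there were 0, against 3960 of all 22206 probe sets. Of the 24 genes, 3 lay above the receptor background: Hoxa4, Hoxc9 and Hoxd8. Hoxa4, an anterior Hoxa gene, read 5.93, 5.73 and 5.82 in WT and 5.86, 5.86 and 5.31 in K313 (-0.15 ± 0.18, limma adjusted p = 0.772). Only K313 replicate 3 lay under the WT arrays. Hoxc9, a posterior gene of thoracic identity, read 5.55, 5.21 and 5.44 against 5.29, 5.58 and 5.71 and overlapped throughout (0.13 ± 0.17, limma adjusted p = 0.797). Hoxd8, a paralogue of Hoxb8, read 4.81, 4.77 and 4.82 against 4.89, 4.99 and 5.92 (0.47 ± 0.25, limma adjusted p = 0.372). All K313 arrays lay above WT, but replicate 3 alone made most of the change, which was 0.14 without it.

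The reading of these 3 genes is close to the floor. Of the receptor probe sets, 0.424% had a mean at or above that of Hoxa4, 0.99% above or at Hoxc9 and Hoxb2, 2.4% at Hoxd8 and 6.44% at Hoxb3. Over the 32 Hox genes other than Hoxb8, levels ran from 2.44 to 5.93 and 17 changes were positive, with a median of 0.03. At an unadjusted p under 0.05 (limma), 1 of the 32 passed, Hoxb3, against 3960 of all 22206 probe sets. Hoxa10, which like its neighbour Hoxa9 is used by early myeloid progenitors, read 4.24, 4.38 and 4.65 in WT and 3.97, 4.03 and 4.35 in K313 (-0.31 ± 0.18, limma adjusted p = 0.426), with overlap and not above the receptor background. Hoxa5, Hoxa6 and Hoxa3 were likewise at background, between 3.15 and 3.70. Hoxa9 itself is not among the members read here.

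The Hoxa3, Hoxa11, Hoxb13 and Hoxc13 arrays did not overlap between groups although all were under the floor. Hoxa11, a gene of limb and uterus, read 3.64, 3.17 and 3.24 in WT and 3.07, 3.06 and 3.08 in K313, and Hoxc13, a gene of hair and nails, read 2.84, 2.88 and 2.88 against 3.01, 2.94 and 2.97. Their changes of -0.28 and 0.11 are small and had limma adjusted p-values of 0.455 and 0.796. The posterior genes Hoxa13 and Hoxd13 had changes of 0.08 and -0.08. Hoxc8, the third measured paralogue of group 8, read between 2.54 and 2.80 on all arrays.

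The other 12 Hox genes overlapped between groups and were not above the receptor background. The anterior gene Hoxa2 had a difference of 0.18 ± 0.16. In Hoxc the differences were -0.11 for Hoxc4, 0.04 for Hoxc5, 0.10 for Hoxc6, 0.24 for Hoxc10, 0.15 for Hoxc11 and -0.06 for Hoxc12. In Hoxd they were -0.10 for Hoxd1, 0.25 for Hoxd9, -0.15 for Hoxd10, 0.16 for Hoxd11 and 0.03 for Hoxd12. Each of these 12 intervals held 0, so neither a rise nor a fall was detected. At this signal a change may be read too small.

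Meis1, the TALE partner that binds with Hox and Pbx proteins and sustains leukaemic growth, was lower in every K313 array but just missed the threshold. It read 11.46, 11.60 and 11.89 in WT and 11.11, 11.15 and 10.82 in K313. The change was -0.62 ± 0.17 (95% interval -1.01 to -0.24, limma adjusted p = 0.0555). Adjusted p-values over its 14 alternatives ran from 0.035 to 0.206, and 5 of these passed. Meis2, at 3.16 ± 0.03 (SD) in WT and 3.12 ± 0.11 in K313, and Meis3, at 3.48 ± 0.05 and 3.70 ± 0.20, were not above the receptor background.

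The 3 measured Pbx genes, whose products form the core of Hox complexes, did not move as one. Pbx3, the Pbx gene tied to Hoxa9-driven leukaemia, rose. It read 6.70, 6.31 and 6.55 in WT and 8.58, 7.46 and 7.66 in K313, with K313 replicate 1 above the other arrays of its group. The change was 1.38 ± 0.26 (limma adjusted p = 0.0068; 95% interval 0.80 to 1.96), or 2.6-fold, and was 1.04 without K313 replicate 1.

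Pbx2, a broadly used Pbx gene, fell. It read 11.41, 11.06 and 11.05 in WT and 10.44, 10.35 and 10.65 in K313, with no overlap. The change was -0.69 ± 0.17 (limma adjusted p = 0.0284; 95% interval -1.07 to -0.32), or 1.62-fold lower. Leaving out 1 array ended the call in 4 of 6 cases: replicate 1 of WT (limma adjusted p = 0.101), replicate 3 of WT (0.05012), and replicates 1 and 2 of K313 (0.0884 and 0.126). With the replicate number as a block the limma adjusted p was 0.0542. Pbx4, best known from testis, read 7.51, 6.82 and 7.41 against 6.62, 6.51 and 6.73, all K313 arrays lower (-0.63 ± 0.20, limma adjusted p = 0.0932). It passed without WT replicate 2 (-0.84, limma adjusted p = 0.0143), whose Pbx4 level was the WT level nearest to K313.

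**Figure D3:**
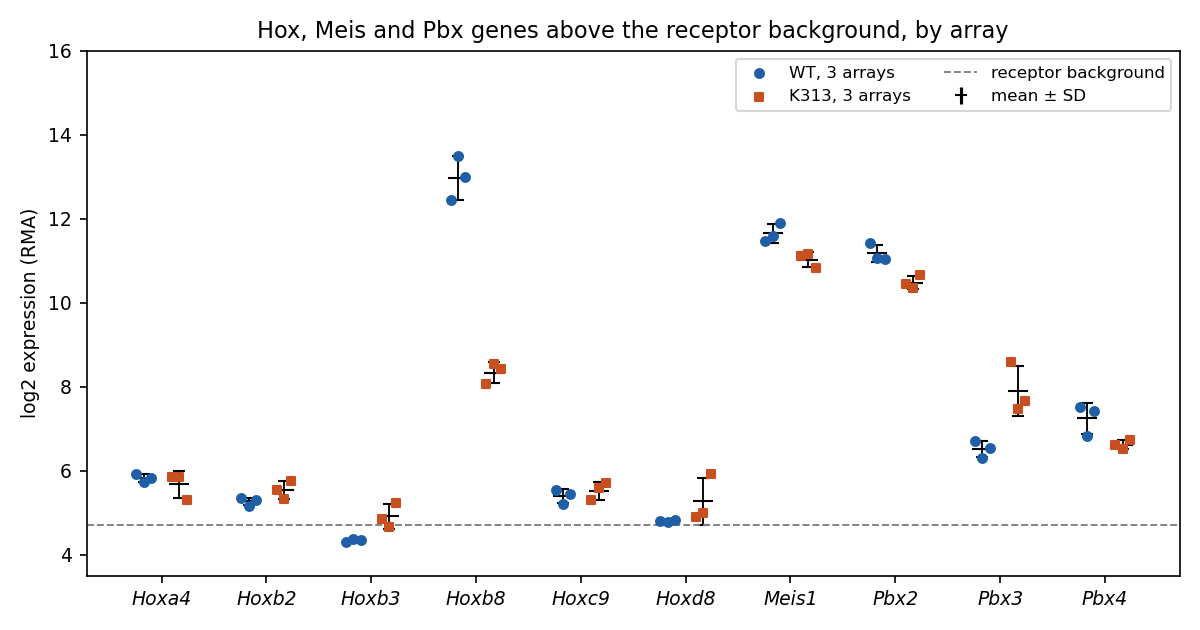
Log2 level on each array of the 10 members above the receptor background (dashed line) in at least 1 group, WT circles and K313 squares, with mean ± SD. Hoxb8, Meis1, Pbx2 and Pbx4 have all K313 arrays below all WT arrays, Hoxb3, Hoxd8 and Pbx3 have all above, and Hoxa4, Hoxb2 and Hoxc9 overlap.

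Other TALE homeodomain genes gave no call: 0 of 11 passed and 0 had an unadjusted p under 0.05 (limma), with a median change of 0.08. Of all probe sets 7.75% passed, and 6 of the 11 genes were not above the receptor background in either group. Pknox1, a Meis relative that also binds Pbx, read 8.49 in WT and 8.87 in K313 on average (0.38 ± 0.22, limma adjusted p = 0.422). The repressor Tgif1, which competes with Meis for sites, had 11.83 and 11.40 (-0.43 ± 0.21, limma adjusted p = 0.321). Both overlapped between groups.

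Among 25 measured homeobox genes of other classes, 2 rose and 2 fell. That is 16%, against 7.75% of all probe sets and 13.3% of those above the receptor background. In 10 of the 25 neither group was above it. Six4, a factor of muscle and kidney development, read 5.52, 4.91 and 5.74 in WT and 9.26, 8.60 and 8.36 in K313, well apart (3.35 ± 0.26, limma adjusted p = 1.08e-05). Nkx2-3, a factor of spleen and gut vessels, rose by 1.22 ± 0.19 (limma adjusted p = 0.00175) from a WT mean of 3.84, under the receptor background, so the size is a compressed estimate. Zfhx3, a large zinc finger homeobox factor, changed by -0.96 ± 0.17 (limma adjusted p = 0.00479) to a K313 mean under that background. Cux1, a Cut-class repressor of myeloid genes, changed by -0.78 ± 0.18 (limma adjusted p = 0.0226), and its call was lost without any 1 of WT replicates 2 and 3 and K313 replicates 1, 2 and 3. The caudal genes Cdx2 and Cdx4, which switch on Hox clusters in the embryo, were not above the receptor background, and Cdx1 had a change of 0.23 ± 0.19. Hhex, a homeobox gene of blood progenitors, read 10.81 and 10.36 on average (-0.45 ± 0.17, limma adjusted p = 0.173).

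The next list joins trithorax genes, which keep Hox clusters open, with MLL fusion partners and related genes. Of its genes 0 of 23 rose and 3 fell, 13%, with a median change of -0.28. Of these genes 22 were above the receptor background in both groups, and the share called lay near the 13.3% of all probe sets above it. By direction it did not: all 3 calls were falls, against 6.97% of those probe sets lower and 6.34% higher. Kdm6b and Kdm6a, demethylases that remove the Polycomb mark from histone H3, and Ell, an elongation factor and MLL fusion partner, were those 3. Kdm6b read 8.92, 9.12 and 8.47 in WT and 7.45, 7.74 and 7.64 in K313 (-1.23 ± 0.19, limma adjusted p = 0.0018). Ell changed by -0.85 ± 0.18 (limma adjusted p = 0.0131), with the call lost without K313 replicate 2 (0.0669).

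Kdm6a read 13.11, 13.91 and 13.95 in WT and 12.83, 12.51 and 12.35 in K313 (-1.09 ± 0.24, limma adjusted p = 0.0142). Leaving out replicate 2 or 3 of WT, or replicate 2 or 3 of K313, ended this call (limma adjusted p = 0.0549 to 0.0733). It is an X-linked gene known to escape silencing, and the Uty gene described above is its Y-linked relative. Any tie between the Uty difference and the Kdm6a change was not tested, and both run along the groups. Men1 and Dot1l, a cofactor and an enzyme that MLL complexes need at Hox genes, had changes of -0.07 ± 0.15 and -0.17 ± 0.15.

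Polycomb genes, which keep Hox clusters silent, had 0 rises and 2 falls among 28, with a median change of -0.14. All 28 were above the receptor background, and the 7.14% called lay under the 13.3% of all probe sets above it. All of these Polycomb calls were falls, and 6.97% of the probe sets above it were called lower. Changes were positive in 28.6% of the Polycomb genes, in 48.8% of the probe sets above the receptor background and in 52.2% of all probe sets. Phc1, a Polyhomeotic subunit, read 9.14, 8.75 and 8.71 in WT and 7.52, 7.20 and 7.09 in K313, well apart (-1.60 ± 0.18, limma adjusted p = 0.000177). Pcgf2, the Mel18 subunit, read 8.09, 6.98 and 6.94 against 6.38, 6.24 and 6.25 (-1.05 ± 0.27, limma adjusted p = 0.0388). WT replicate 1 stood high, and the change was -0.67 without it; the call was lost without any 1 of the K313 arrays. The catalytic subunit Ezh2 read 13.86 and 13.46 on average (-0.40 ± 0.16, limma adjusted p = 0.191). Bmi1, a subunit of the other Polycomb complex, read 12.39 and 11.82 (-0.57 ± 0.17, limma adjusted p = 0.0693).

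The genes just outside the clusters were read as the 5 nearest measured genes on each side by order in RefSeq. Of 40, 3 rose and 1 fell, 10%, between the 7.75% of all probe sets and the 13.3% of those above the receptor background, and 0 of the 10 beside Hoxb passed (limma; 2 at an unadjusted p under 0.05). Skap1, an adaptor of T cells next to Hoxb1, was not above the receptor background (a change of 0.01), and Ttll6, on the Hoxb13 side, had means of 4.78 and 4.65. Beside Hoxa, Skap2, an adaptor of myeloid adhesion, read 13.25 and 12.72 (-0.53 ± 0.16, limma adjusted p = 0.0709), and the next measured gene, the endosomal sorting nexin Snx10, rose by 2.24 ± 0.18 (limma adjusted p = 1e-05).

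Beside Hoxc, Nfe2, a factor of platelet and red cell precursors, changed by -0.79 ± 0.16 (limma adjusted p = 0.0106). The fatty acid receptor Gpr84, on the same side, rose from 8.42, 6.28 and 6.99 in WT to 9.12, 9.21 and 9.37 in K313 (limma adjusted p = 0.0107), and its change was 2.60 without WT replicate 1. That call was lost without K313 replicate 3 (0.0548). Beside Hoxd, Agps, an enzyme of ether lipid synthesis, rose by 2.27 ± 0.25 (limma adjusted p = 0.000146).

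**Figure D4:**
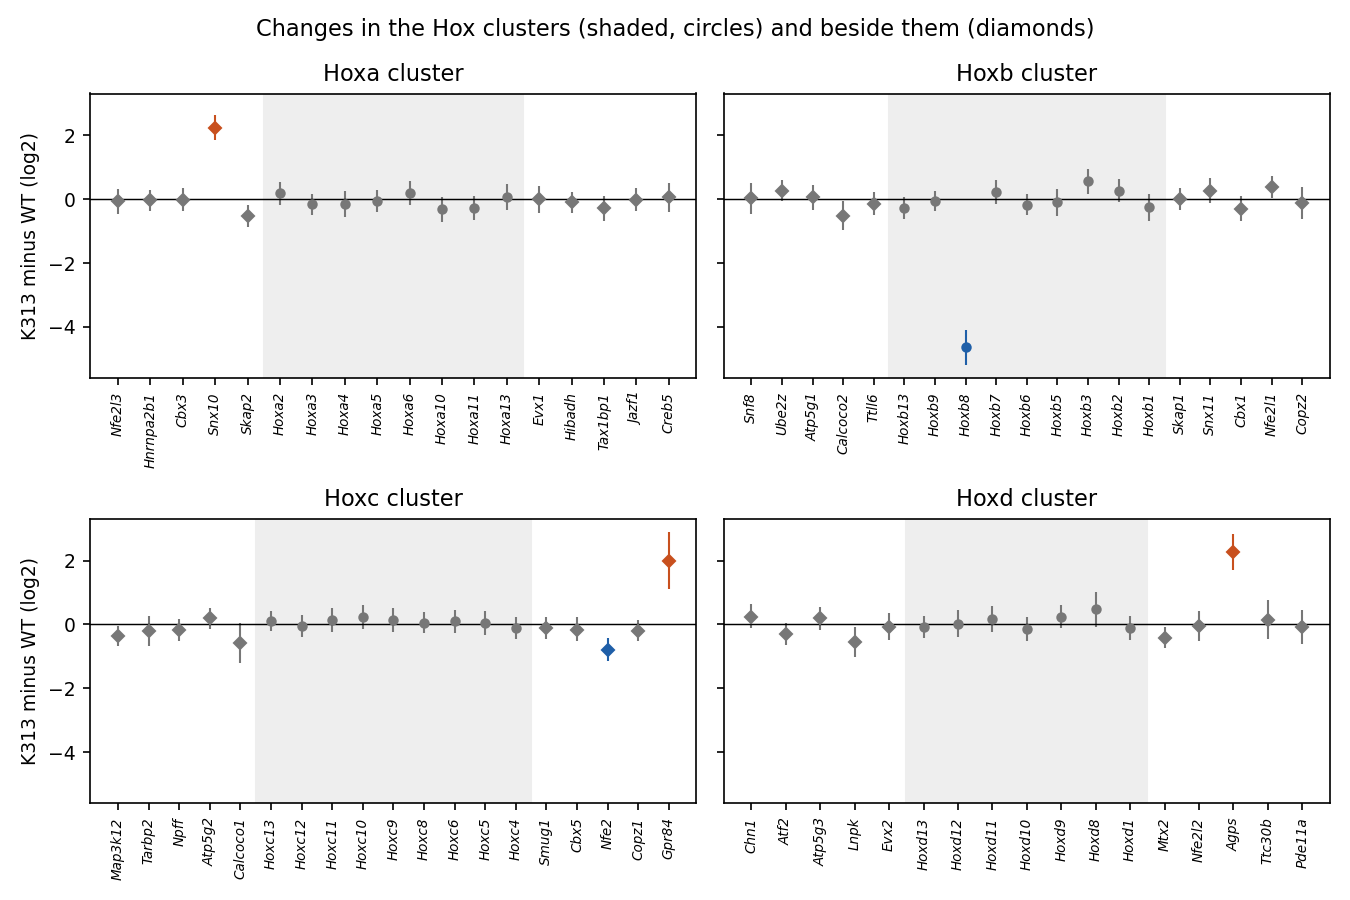
Change, K313 minus WT (log2, with 95% interval), of the measured genes in each Hox cluster (shaded, circles) and of the 5 nearest measured genes on each side (diamonds), in chromosome order and not to scale. Orange marks higher and blue lower calls; in the Hoxb panel Hoxb8 at -4.64 is the 1 called gene, while Snx10, Gpr84 and Agps rose and Nfe2 fell beside the other clusters.

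Of 22 measured genes linked to Hoxa9 and Meis1 in progenitors and leukaemia, 4 rose and 6 fell, 45.5%, with a median change of -0.10, against 7.75% of all probe sets and 13.3% of those above the receptor background. The list was chosen with results of these data known, so this share is a description. Fgf3, a growth factor gene counted in it, was put on that list with its fall already known and is no independent sign of direction (-4.56 ± 0.18). Id2, an inhibitor of basic helix-loop-helix factors, read 11.24, 11.46 and 10.04 in WT and 7.10, 6.52 and 7.87 in K313 (-3.75 ± 0.39, limma adjusted p = 7.66e-05). Ccl3, an inflammatory chemokine, changed by -3.32 ± 0.29 and Mef2c, a factor of myeloid and lymphoid progenitors, by -1.66 ± 0.16 (limma adjusted p = 2.57e-05 and 5.54e-05).

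The stem cell antigen gene Cd34 read 16.44, 16.30 and 16.25 in WT and 15.38, 15.49 and 15.34 in K313, a fall without overlap (-0.93 ± 0.15, limma adjusted p = 0.00228). Lmo2, a bridge of progenitor transcription complexes, went the other way, from 10.56, 9.97 and 10.68 to 12.55, 12.46 and 12.70 (2.17 ± 0.20, limma adjusted p = 3.54e-05). The proliferation factors Myb and Myc had changes of 0.20 ± 0.16 and 0.16 ± 0.14 (limma adjusted p = 0.6 and 0.655). Flt3, the cytokine receptor under Meis1 control, read 5.57 and 5.27 on average. Kit, the receptor for the stem cell factor in the medium, read 14.25 and 13.63 (-0.62 ± 0.22, limma adjusted p = 0.148), with all K313 arrays lower.

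**Figure D5:**
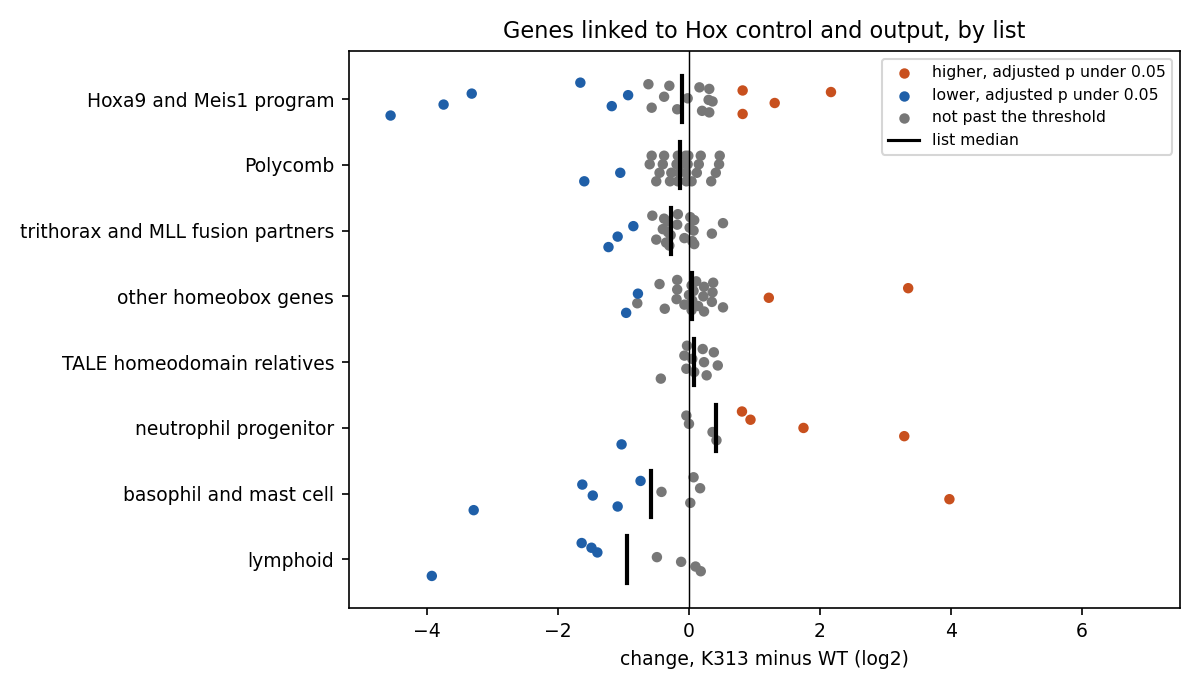
Change of each gene (points) on 8 lists, K313 minus WT on the log2 scale, with the list median as a black bar; orange and blue mark higher and lower calls at a limma adjusted p under 0.05. Medians run from -0.95 for lymphoid genes to 0.42 for neutrophil progenitor genes. Those of the Polycomb, trithorax and MLL, TALE, other homeobox and Hoxa9 and Meis1 lists lie between -0.28 and 0.08.

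Markers of several cell types differed between the groups. The share called was 55.6% for neutrophil progenitor, 60% for basophil and mast cell and 50% for lymphoid markers. It was 44.4% for monocyte and macrophage, 28.6% for erythroid and 25% for stem cell markers. Of all probe sets 7.75% were called, and 13.3% of those above the receptor background. The lists were chosen with results of these data known, so these shares are a description. All 9 measured neutrophil progenitor markers were above the receptor background in both groups, and their mean log2 level was 12.40 to 12.53 in WT and 13.05 to 13.27 in K313. Of these, 4 rose (Elane, Ctsg, Prtn3 and Ms4a3, granule proteases and a granulocyte progenitor membrane protein) and 1 fell (Csf3r, the receptor for granulocyte colony-stimulating factor). Csf3r lost the call without K313 replicate 2, and Ms4a3 without replicate 1 or 3 of either group. Basophil and mast cell markers had 1 rise (Prss34) and 5 falls (Cma1, Mcpt8, Gata2, Itga2b and Hdc) among 10, with mean levels of 10.48 to 10.90 in WT and 10.17 to 10.43 in K313. Fcer1a alone of that list was not above the receptor background. Hdc lost the call without replicates 1 or 3 of WT or 2 or 3 of K313, and Itga2b without K313 replicates 1 or 3.

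Lymphoid markers fell in 4 of 8 (Cd79b, Rag2, Cd79a and Cd3g), from mean levels of 5.83 to 5.99 to 4.75 to 4.92, with Pax5 and Cd3e not above the receptor background. Erythroid markers had 1 rise (Tfrc) and 1 fall (Gata1) among 7, with levels of 7.11 to 7.49 and 6.67 to 7.08, and Klf1 and Ermap not above background. Monocyte and macrophage markers had 2 rises (F13a1 and Ccr2) and 2 falls (Cx3cr1 and Adgre1) among 9, and their levels overlapped, 6.73 to 6.89 and 6.77 to 6.94, with Mrc1, Klf4 and Ly86 not above background. The Ccr2 call was lost without any 1 of the 6 arrays, Adgre1 without replicates 2 or 3 of either group, and Tfrc without replicates 1 or 2 of either group. Stem cell markers had 1 rise (Hlf) and 1 fall (Cd34) among 8, with levels of 6.46 to 6.60 and 6.60 to 6.80, and Procr, Slamf1, Mecom, Tek and Fgd5 not above background. The part of these shifts in the Hoxb8, Pbx2 and Pbx3 results was not tested. The level of Cebpa itself, 14.58 ± 0.25 (SD, n = 3) and 14.07 ± 0.33, was not called different (limma adjusted p = 0.212), and whether its probe set reads the introduced forms is not stated.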

How the data were processed

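Total RNA was labelled with biotin and hybridised to Affymetrix Mouse Clariom S arrays, per the labels' protocols. The deposited log2 values were made by the authors with RMA and the Transcriptome Analysis Console, per the submitters' processing notes; versions and the build of the array design are not given in the sources used here. RMA levels the distributions of the arrays. A shift in RNA content shared by all genes is therefore not visible, and folds near the floor are too small.

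Symbols came from GEO's platform annotation (19572 probe sets with 1 symbol, 0 with several, 2634 with none). All 22206 probe sets were fitted in limma 3.58.1 (R 4.3.3), using lmFit on group alone and eBayes, two-sided, Benjamini-Hochberg over all, threshold 0.05; adjusted p-values are from this fit unless an alternative is named beside them. The fit was tested on simulated data. The number of arrays, 3 per group, limits precision: the median standard error was 0.18.

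The members and the 11 lists (174 genes) were chosen with earlier results of these data known. Named were all members, Cebpa, and for each list and the genes beside the clusters the called ones, or the 6 with the smallest p where over 6 were called. Uty, Myb, Myc, Flt3, Kit, Pknox1, Tgif1, Hhex, the Cdx genes, Men1, Dot1l, Ezh2, Bmi1, Skap1, Skap2, Ttll6 and the cell type markers not above the receptor background were named outside that rule, after their values were seen. Promoters come from RefSeq (GRCm38.p6) and were found for 22 of 39 members.

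Alternatives were quantile normalization, a common median, dropping the dimmest 30% of probe sets, a trend with robust prior, ordinary variance, array weights, 1-symbol probe sets, the replicate number as a block, and leaving out each array. Same-numbered arrays deviated from their group means with correlations of -0.061, 0.029 and -0.062. Differently numbered arrays had correlations of -0.078 to 0.138. With 3 arrays per group these values cannot show whether the numbers pair the arrays.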

Additional observations from a re-analysis of the deposited data

How the results depend on the processing

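Hoxb8 kept its direction and its call under all 14 alternatives (-4.90 to -4.38), and Pbx3 kept both except with ordinary variance (limma adjusted p = 0.206). Over all probe sets, 838 rose and 882 fell; with ordinary variance per probe set the counts were 247 and 249, and without 1 array 625 to 760 rose and 575 to 776 fell. Among the members, 1 rose and 2 fell; ordinary variance left 0 and 1, array weights gave 4 falls (with Meis1 and Pbx4), and without 1 array there was 1 rise and 1 to 3 falls. Listed genes called, 14 higher and 26 lower, came to 4 and 9 with ordinary variance, and to 11 to 13 and 19 to 26 without 1 array. Beside the clusters, 3 rose and 1 fell; ordinary variance gave 1 and 0, a common median and a trend with robust prior each gave 2 falls, and leaving out 1 array gave 2 to 3 rises and 1 fall.

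With the replicate block, 1 member fell, since Pbx2 missed the threshold (limma adjusted p = 0.0542), and 777 probe sets rose and 769 fell. Whether the numbers pair the arrays is not known. Meis1 passed with a common median (0.035), low probe sets removed (0.0474), a trend (0.04995), array weights (0.0453) and 1-symbol probe sets (0.04995). Hoxa4, at -0.15, ran from -0.24 to 0.03 without 1 array and was above 0 only without K313 replicate 3. The members above the receptor background numbered 12 at the 90th and 8 at the 99th percentile, against 10. The causes were not tested. Signal over background limits most Hox genes: in the 29 members not above the receptor background a fall could be missed or read too small.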
